A study of Mus musculus with 2 samples.

Results

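The genes described here are 33 named genes of hypoxia and glycolysis: the oxygen-regulated factor Hif1a, 2 of the hydroxylases that act on it, 3 transporters of glucose or lactate, 19 genes of glycolysis and of the branch at pyruvate, and 8 further genes that respond to low oxygen. They were taken as a fixed list of symbols, joined between the 2 deposited gene lists by Ensembl identifier, out of 29413 identifiers that both lists hold. Of the 33 genes, 32 had at least 20 unique molecular identifiers (UMIs, each counting 1 captured RNA molecule) in each library. Adm, which encodes the vasodilator peptide adrenomedullin, had 4 niche and 12 distal UMIs and is described only by these counts, whereas Egln3, just above the limit, had 21 niche and 24 distal UMIs.

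Female Balb/c mice had received labelling 4T1 cells, a metastatic line of mouse mammary carcinoma, into a vein, and their metastatic lungs were dissociated at 7 days. Flow sorting gave niche immune cells and distal lung immune cells, each measured as 1 droplet-based 3′ single-cell library on the 10x Chromium system. Both groups thus come from lungs with metastases, and neither is tumour-free tissue. How the gates were set and how many mice went into each library is not stated in the labels. The niche library held 3242 barcodes and 38036915 UMIs and the distal library 3945 barcodes and 22323465 UMIs; the 3080 niche and 3536 distal cells that were used had medians of 11197 and 5794.5 UMIs. Cells were clustered on both libraries together and named from marker genes, with names ending in "-like". Of the 33 genes, Slc16a3 alone was among the 2000 variable genes that built the clusters. Each group is 1 library, so no difference between niche and distal cells has a replicate check, no p-value is given, and all intervals below are 95% intervals that cover counting error only.

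Glycolysis splits glucose into pyruvate in the cytosol, and lactate dehydrogenase turns pyruvate into lactate, which leaves the cell through proton-coupled transporters. When oxygen is low, prolyl hydroxylases no longer mark HIF-1α, the protein made from Hif1a, for degradation, and HIF-1α then binds short DNA motifs near glucose transporter, glycolytic and other target genes. In macrophages and neutrophils the same genes are also known to respond to inflammatory signals, and HIF-1α is regulated largely at the level of the protein, which RNA counts do not show.

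The motif core bound by HIF-1α reads ACGTG or GCGTG. These 5 letters were searched on both strands in the 250 bases before the start of each gene, taken from the promoter table of RefSeq on GRCm38.p6. A window was found for 32 of the 33 genes, with Ero1l under its RefSeq symbol Ero1a, and not for Ndrg1. Of the 32 genes, 29 had at least 1 match in at least 1 window, a share of 90.6%, against 41.5% of the 27025 genes in that table. Counted by window, 37 of 46 windows had a match, a share of 80.4%, against 38.6% of all 32851 windows. The windows of the listed genes had a median GC content of 61.0%, against 52.4% over all windows, and both motifs consist mostly of G and C. The E-box CACGTG contains the core on both strands, counts as 2 matches, and occurred in 6 of the 46 windows, a share of 13.04%, against 6.02% of all windows. Gpi1, Tpi1 and Mif had no match in these windows. A match describes letters in a window and is not evidence of binding.

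The 5 windows below are shown because the results turn on these genes: Pgk1, Ldha and Hk3 were higher in the niche monocyte/macrophage-like cells, Slc16a3 was far higher in neutrophil-like cells than in any other class, and Gpi1 was the gene whose interval lay below equality. Ldha has another window, with 1 match, that is not shown. Tpi1 and Mif had no match and were also higher in niche monocyte/macrophage-like cells, with niche-to-distal log2 ratios of 0.62 and 0.58. Whether matches go with the direction of a ratio was not tested. Capitals mark each core match, and all are written 5′ to 3′ on the strand of the gene. Pgk1 lies at chrX:106186850-106187099 on the + strand with 2 matches, Ldha at chr7:46845554-46845803 on the + strand with 5 matches that include 2 E-boxes, Slc16a3 at chr11:120948817-120949066 on the + strand with 2 matches, Hk3 at chr13:55021386-55021635 on the - strand with 1 match, and Gpi1 at chr7:34230337-34230586 on the - strand with 0 matches.
Pgk1: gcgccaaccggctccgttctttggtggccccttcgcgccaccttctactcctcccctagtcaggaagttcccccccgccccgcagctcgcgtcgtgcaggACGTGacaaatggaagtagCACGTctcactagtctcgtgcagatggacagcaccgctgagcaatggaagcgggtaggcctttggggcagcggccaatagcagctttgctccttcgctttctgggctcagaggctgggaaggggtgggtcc
Ldha: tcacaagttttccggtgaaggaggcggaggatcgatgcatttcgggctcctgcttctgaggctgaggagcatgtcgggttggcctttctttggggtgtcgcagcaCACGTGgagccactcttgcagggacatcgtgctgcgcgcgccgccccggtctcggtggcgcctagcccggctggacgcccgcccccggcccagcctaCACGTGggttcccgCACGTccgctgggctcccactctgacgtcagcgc
Slc16a3: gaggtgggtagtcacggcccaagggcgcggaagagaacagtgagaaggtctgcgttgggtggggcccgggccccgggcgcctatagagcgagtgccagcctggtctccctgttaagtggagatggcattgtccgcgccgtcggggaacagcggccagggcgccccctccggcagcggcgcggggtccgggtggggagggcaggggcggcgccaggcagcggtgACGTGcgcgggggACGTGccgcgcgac
Hk3: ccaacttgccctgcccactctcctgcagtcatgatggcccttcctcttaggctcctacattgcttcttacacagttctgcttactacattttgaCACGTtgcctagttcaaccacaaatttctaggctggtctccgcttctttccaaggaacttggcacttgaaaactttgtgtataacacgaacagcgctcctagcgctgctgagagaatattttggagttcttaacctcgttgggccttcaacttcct
Gpi1: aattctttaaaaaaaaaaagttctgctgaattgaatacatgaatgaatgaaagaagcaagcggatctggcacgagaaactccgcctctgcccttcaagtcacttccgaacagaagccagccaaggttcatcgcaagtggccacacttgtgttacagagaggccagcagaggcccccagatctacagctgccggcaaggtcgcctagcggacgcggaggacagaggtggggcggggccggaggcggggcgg

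Levels were first set side by side across cell classes within each library. UMIs of a class were summed and divided by all UMIs of the class on shared identifiers, giving CPM, the UMIs of a gene per 1000000 UMIs of the class. Each UMI marks the 3′ end of a molecule whatever its length, so levels of different genes can be set beside each other, apart from differences in how well each 3′ end is captured. Classes with at least 20 cells were used, 12 in the niche library and 15 in the distal library, leaving out mixed clusters and niche cells with very few UMIs. The summed level of the 33 genes was highest in niche cluster 4, at 7401 CPM. This cluster was led by Arg1 and Ccl24. It was kept apart from the named classes because Arg1 stands on a marker list of innate lymphoid cells. None of its leading genes was on a macrophage or monocyte list. It still carried interstitial macrophage and classical monocyte markers, at fractions of 0.67 and 0.56 of these lists. Next came niche monocyte/macrophage-like cells at 6721 CPM and proliferating monocyte/macrophage-like cells at 6228 CPM. The lowest niche sums were 1935 CPM in B cell-like and 2422 CPM in T cell-like cells of cluster 16, led by Lef1, Txk and Dapl1. In the distal library the highest sum, 6220 CPM, belonged to the T cell-like cells of cluster 8, led by Cd3g, Nkg7 and Gzmb, ahead of cluster 4 at 5987 CPM, proliferating monocyte/macrophage-like cells at 5165 CPM and monocyte/macrophage-like cells at 4800 CPM. Alveolar macrophage-like cells, the most numerous distal class with 1119 cells, had 4184 CPM, and distal stromal and epithelial cells had the lowest sum, 2321 CPM.

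**Figure D1:**
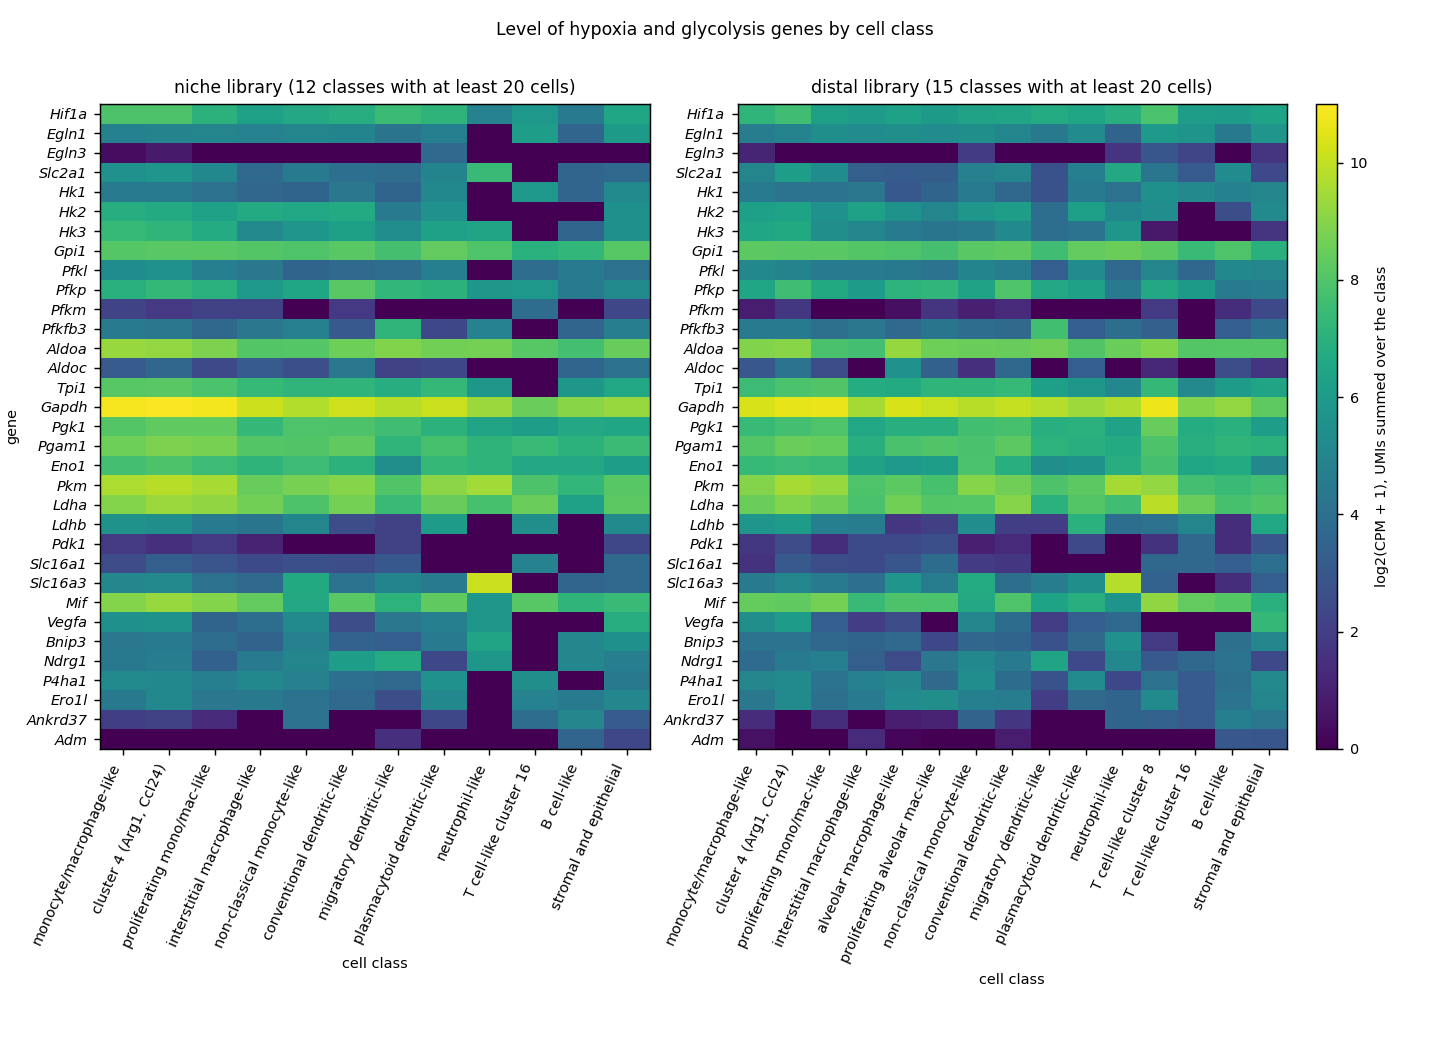
Levels of the hypoxia and glycolysis genes as log2(CPM + 1) in each cell class with at least 20 cells, with 12 niche classes in 1 panel and 15 distal classes in the other. Genes run down the page and classes across it, and brighter colours are higher levels; Slc16a3 stands out in neutrophil-like cells of both libraries (1123 CPM niche, 883 CPM distal) and Pfkfb3 in migratory dendritic-like cells (146 CPM niche, 200 CPM distal).

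Hif1a had its highest niche level in monocyte/macrophage-like cells, at 242 CPM, and nearly the same level in cluster 4, at 239 CPM, and these neighbours did not differ beyond their intervals. Its highest distal level was 233 CPM in T cell-like cluster 8, with an interval of 209 to 258 CPM that overlapped the 196 CPM of cluster 4. The lowest levels were 22.2 CPM in niche B cell-like cells and 62.1 CPM in distal proliferating alveolar macrophage-like cells. Hif1a (ENSMUSG00000021109, chr12:73901375-73947530 on the + strand of GRCm38) shares exonic bases on its strand with Gm49321, a gene row that only the distal list holds. Reads in the shared bases can therefore be counted differently in the 2 libraries, and niche to distal differences of Hif1a are uncertain. Egln1, the main oxygen-sensing prolyl hydroxylase, had its highest levels in T cell-like cells. These were 70.8 CPM in niche cluster 16 (interval 23.0 to 165) and 61.0 CPM in distal cluster 8 (49.1 to 74.9). Both intervals overlapped those of stromal and epithelial cells, at 61.8 CPM in the niche and 52.7 CPM in the distal library. Egln3, a hydroxylase that is itself induced by low oxygen, had at most 12.7 CPM in any class of either library.

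The transporters divided sharply by cell class. Slc16a3 encodes the lactate exporter MCT4 and lies at chr11:120948480-120960868 on the + strand. It reached 1123 CPM in niche neutrophil-like cells, with an interval of 803 to 1530 CPM over 29 cells, and 883 CPM in distal neutrophil-like cells, with an interval of 800 to 971 CPM over 364 cells. The next class in both libraries was non-classical monocyte-like cells, at 103 CPM in the niche and 108 CPM in the distal library, so that the neutrophil-like level was 10.9 times and 8.19 times that of the next class. Neutrophil-like cells held few UMIs, so detection in the distal library was set at equal depth. After thinning each cell to 1000 UMIs, 58.0% of 219 distal neutrophil-like cells had a Slc16a3 UMI (exact binomial interval 51.2% to 64.6%), against 0 of 189 B cell-like cells, a count that allows a share of cells with a UMI of up to 1.59% at this depth and does not limit how many cells express the gene. Thinning left out 145 shallower neutrophil-like and 10 B cell-like cells; unthinned, the shares were 60.2% and 0.503%, at medians of 1070.5 and 2289 UMIs per cell. When cells were clustered without any of the 33 genes, the neutrophil-like levels were 1123 CPM in the niche and 884 CPM in the distal library.

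Slc2a1, which encodes the glucose transporter GLUT1, was also highest in neutrophil-like cells, at 168 CPM in the niche and 99.0 CPM in the distal library. The niche interval, 61.8 to 367 CPM, was wide but lay above that of the next class, cluster 4 at 53.9 CPM. In the distal library, cluster 4 followed at 68.6 CPM without a gap between intervals. Slc16a1, which encodes MCT1, a transporter that carries lactate in either direction, was 0 of 40 Slc16a1 and Slc16a3 UMIs in niche and 0 of 419 in distal neutrophil-like cells, with upper bounds of 8.81% in the niche and 0.877% in the distal library. It made up 54.5% of these UMIs in distal T cell-like cluster 8, with an interval of 36.4% to 71.9%. Monocyte/macrophage-like cells lay between, with Slc16a1 shares of 12.7% in the niche and 8.06% in the distal library.

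**Figure D2:**
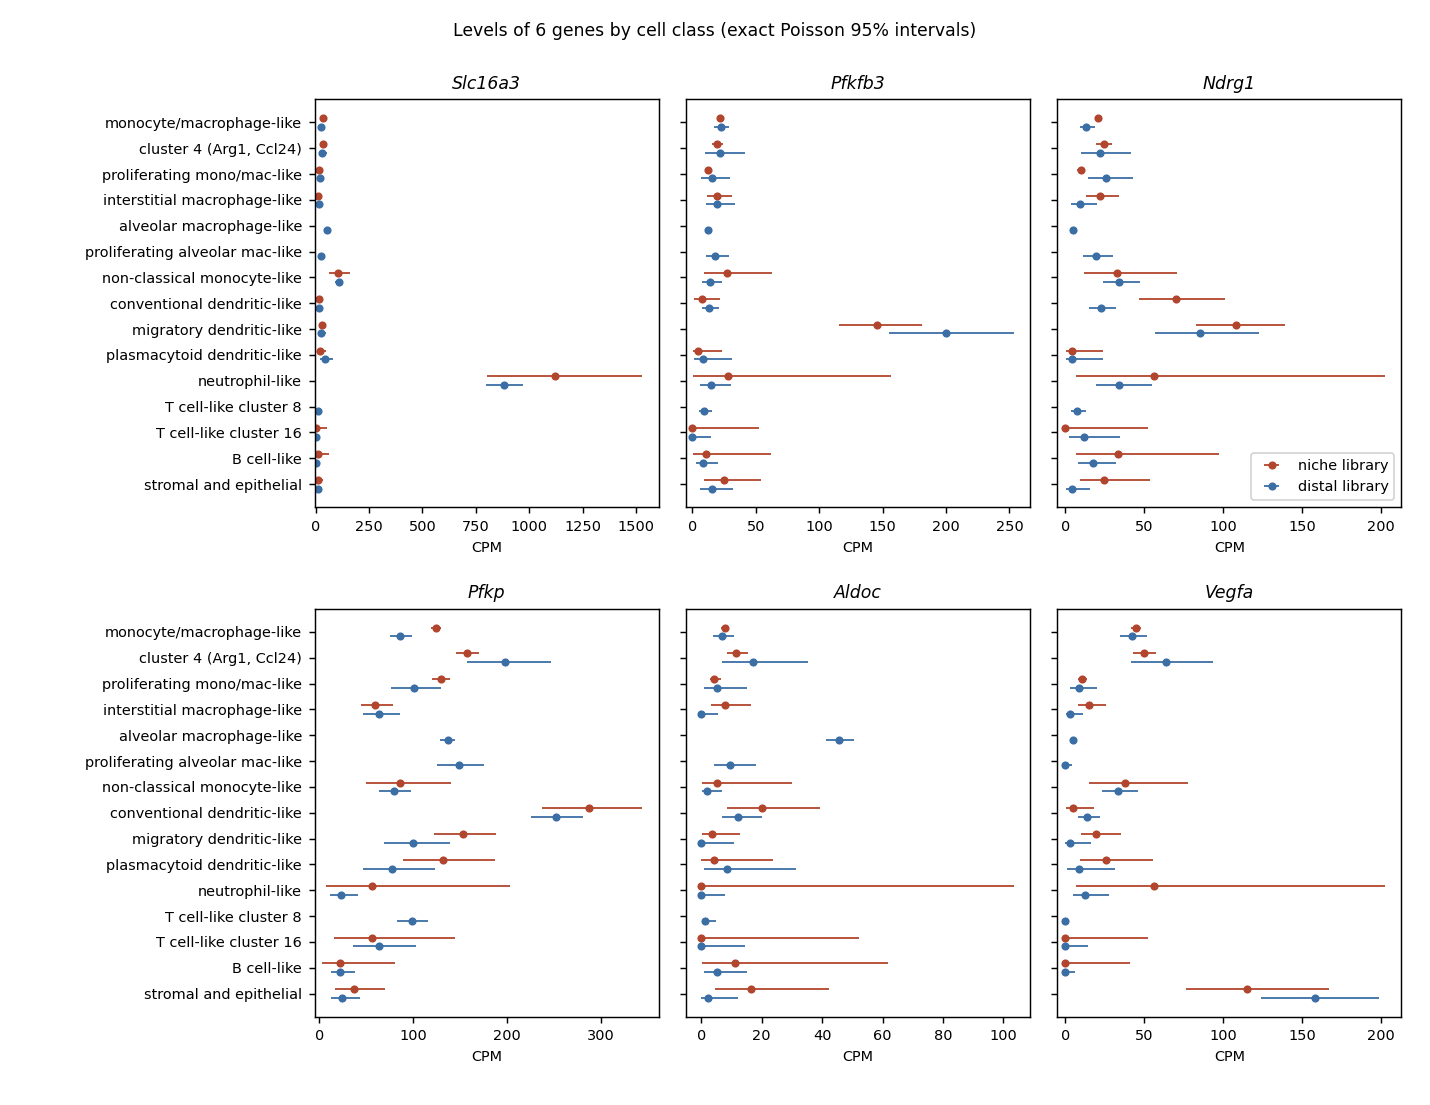
CPM of Slc16a3, Pfkfb3, Ndrg1, Pfkp, Aldoc and Vegfa in each cell class of the niche and distal libraries, with bars for exact Poisson 95% intervals. The class with the highest level depends on the gene: neutrophil-like for Slc16a3, migratory dendritic-like for Pfkfb3 and Ndrg1, and distal alveolar macrophage-like for Aldoc. It is stromal and epithelial for Vegfa and, at the limit of 10% mitochondrial UMIs, conventional dendritic-like for Pfkp. The Pfkp rank is not clear at a limit of 5%, where the remaining cells were clustered and named anew.

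Hexokinase, the enzyme that traps glucose in the cell as its phosphate, is made from several genes, and the gene in use differed by class. Hk3, a myeloid isozyme, made up 54.4% of the Hk1, Hk2 and Hk3 UMIs in niche monocyte/macrophage-like cells (interval 53.1% to 55.6%) and 48.1% in distal ones (43.5% to 52.8%). Hk2, the isozyme best known as inducible, made up 68.9% in niche and 60.0% in distal interstitial macrophage-like cells, and 61.7% in distal alveolar macrophage-like cells. Hk1, the broadly expressed isozyme, was 52.3% in distal T cell-like cluster 8, against 7.16% in niche and 12.5% in distal monocyte/macrophage-like cells. Hk3 was close to absent from lymphoid classes, with 0 CPM in distal T cell-like cluster 16 and B cell-like cells and 0.67 CPM in T cell-like cluster 8; the counts of 0 allow up to 11.8 CPM in cluster 16 and 5.19 CPM in B cell-like cells. Stromal and epithelial cells had 45.4 CPM of Hk3 in the niche and 2.20 CPM in the distal library. The hexokinase shares thus differed more between these classes than between niche and distal monocyte/macrophage-like cells.

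Phosphofructokinase commits sugar to glycolysis. Its platelet-type gene Pfkp made up most UMIs of this step in nearly every myeloid class, with 74.0% in niche and 71.0% in distal monocyte/macrophage-like cells and 95.04% in niche and 90.6% in distal conventional dendritic-like cells. Pfkp was also highest in level in conventional dendritic-like cells, at 287 CPM in the niche and 253 CPM in the distal library. Cells above 5% mitochondrial UMIs were also removed, and the rest were clustered and named anew. The levels of this class were then 129 CPM in the niche and 152 CPM in the distal library. Both lay below the 158 CPM and 198 CPM of cluster 4 at the 10% limit, so the rank of this class is not fixed. Whether the limit or the new clustering changed the levels was not tested. The liver-type gene Pfkl had a larger share in distal B cell-like cells, 58.8%, and in distal stromal and epithelial cells, 51.9%. The muscle-type gene Pfkm contributed at most 7.41% in any class. Pfkfb3 encodes an enzyme that makes an activator of phosphofructokinase. It was highest in migratory dendritic-like cells, at 146 CPM in the niche (interval 116 to 181) and 200 CPM in the distal library (155 to 254), and the next distal class had 22.3 CPM. In the niche the next class was neutrophil-like cells at 28.1 CPM, with too few UMIs to set the intervals apart. These migratory cells express Ccr7 and Fscn1.

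**Figure D3:**
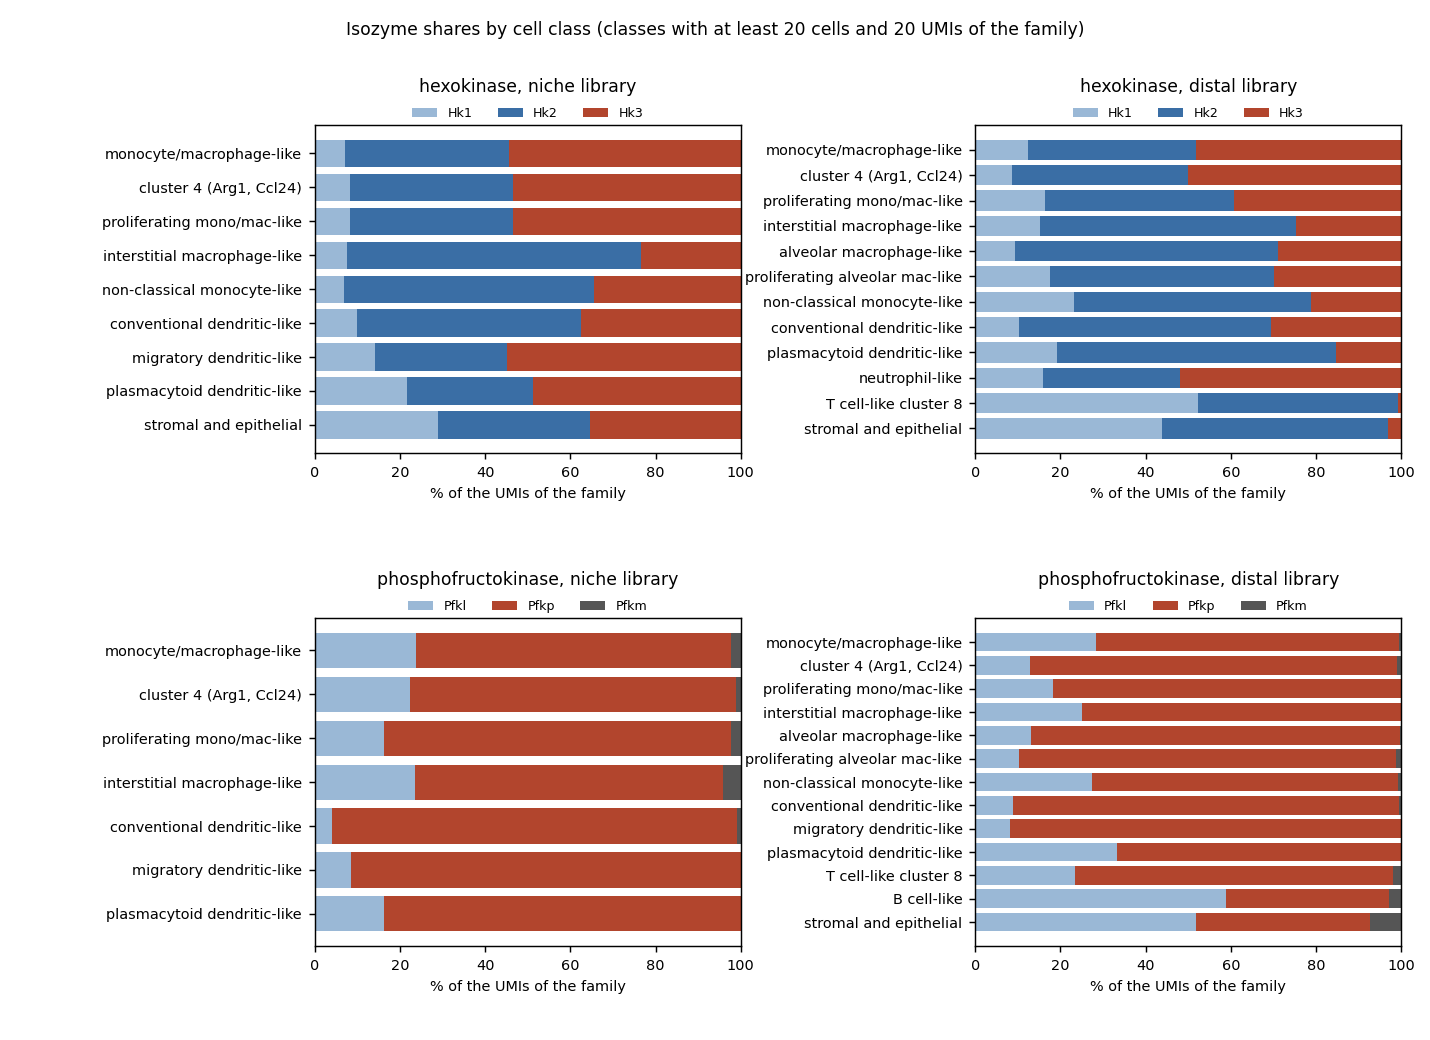
Shares of the hexokinase genes Hk1, Hk2 and Hk3 and of the phosphofructokinase genes Pfkl, Pfkp and Pfkm, in percent of the UMIs of each family, stacked to 100% in each cell class of the niche and distal libraries with at least 20 cells and 20 UMIs of the family. Hk3 holds 54.4% of niche and 48.1% of distal monocyte/macrophage-like hexokinase UMIs, Hk1 holds 52.3% in distal T cell-like cluster 8, and Pfkp holds 95.04% of niche and 90.6% of distal conventional dendritic-like phosphofructokinase UMIs.

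Gpi1, which interconverts the phosphates of glucose and fructose, spanned 127 to 331 CPM over niche classes and 125 to 364 CPM over distal classes. Gapdh, the glyceraldehyde phosphate dehydrogenase, was the highest of the 33 genes in most classes, at 1977 CPM in niche cluster 4 and 1704 CPM in distal T cell-like cluster 8. Aldoa, the main aldolase, was highest in niche monocyte/macrophage-like cells at 633 CPM and in distal alveolar macrophage-like cells at 610 CPM. Its relative Aldoc had its highest level in distal alveolar macrophage-like cells, at 45.7 CPM with an interval of 41.2 to 50.5, and was 6.97% of the aldolase UMIs there. Tpi1, the triose phosphate isomerase, had its lowest distal level in neutrophil-like cells, at 33.7 CPM, although the same cells had 735 CPM of Pkm, the pyruvate kinase gene. The gene set thus did not run in parallel in neutrophil-like cells, which had high Slc16a3, Slc2a1 and Pkm beside low Tpi1 and Mif.

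Distal T cell-like cluster 8 led the distal library for several lower steps. Ldha, the lactate dehydrogenase subunit that favours lactate production, had 938 CPM there, with an interval of 889 to 988, against 519 CPM in the next class, conventional dendritic-like cells. Pgk1, a phosphoglycerate kinase, had 349 CPM there, against 248 CPM in distal proliferating monocyte/macrophage-like cells, and the intervals did not overlap. Mif, which encodes a cytokine also induced by low oxygen, had 578 CPM, against 420 CPM in the next distal class. With 9 niche cells, this cluster had no usable niche level. Ldhb, the other lactate dehydrogenase subunit, was highest in plasmacytoid dendritic-like cells, where it made up 15.5% of lactate dehydrogenase UMIs in the niche and 32.97% in the distal library. In distal alveolar macrophage-like cells its share was 0.585%.

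Among the other hypoxia-responsive genes the class with the highest level also differed, mostly without a gap between intervals. Vegfa, the endothelial growth factor, was highest in stromal and epithelial cells, at 115 CPM in the niche and 158 CPM in the distal library; monocyte/macrophage-like cells had 44.6 CPM in the niche and 42.5 CPM in the distal library. Bnip3, a gene of mitochondrial autophagy, was highest in neutrophil-like cells, at 84.2 CPM in the niche and 46.3 CPM in the distal library, without a gap to stromal and epithelial cells in either. Ndrg1, a stress-responsive gene, was highest in migratory dendritic-like cells, at 108 CPM in the niche and 85.3 CPM in the distal library. Ero1l, an oxidase of protein folding in the endoplasmic reticulum, was highest in distal proliferating alveolar macrophage-like cells at 41.8 CPM and lowest in distal migratory dendritic-like cells at 2.94 CPM. P4ha1, a collagen prolyl hydroxylase subunit, reached 46.7 CPM in niche plasmacytoid dendritic-like cells and 40.6 CPM in distal non-classical monocyte-like cells. Ankrd37 was highest in B cell-like cells, at 33.4 CPM in the niche and 26.0 CPM in the distal library. No class had the highest level for all of these genes. The leading class had an interval apart from the next only for Vegfa and Ndrg1, and only in the distal library. Niche intervals of the leading class were wide, at 17.4 to 246 CPM for Bnip3 and 6.88 to 97.5 CPM for Ankrd37.

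The niche and distal libraries were then compared within classes that had at least 50 cells in each. Monocyte/macrophage-like cells, pooled from clusters 1, 2, 9 and 20, counted 1561 in the niche and 297 in the distal library and were 50.7% and 8.40% of the cells. Of the 33 genes, 31 had at least 20 UMIs over both libraries in this class. The 2 others were Egln3 with 6 niche and 3 distal UMIs and Adm with 0 niche and 1 distal UMI. The ratio was above equality for 27 of the 31 genes, against 47.2% of all 10907 genes measured in the class. Of the 31, 10 were more than 1.5-fold higher in niche cells, against 8.01% of all genes. Of these 10, Pfkm, Slc16a1 and Ankrd37 had at most 5 distal UMIs and could pass the minimum only through their niche counts. None of the 31 was more than 1.5-fold lower, against 11.6% of all genes. The median log2 ratio of niche over distal was 0.50 for the 31 genes and -0.02 for all genes, and the summed level was 6721 CPM in niche and 4800 CPM in distal cells, a log2 ratio of 0.49 (interval 0.46 to 0.51). The interval lay above 0 for 17 of the genes, against 12.3% of all genes, and below 0 for Gpi1, against 12.5% of all genes. Intervals narrow as counts rise, and some of the listed genes were deeply counted, such as Gapdh with 38835 UMIs. All genes needed only 20 UMIs, so the shares of intervals here and below are not set at equal depth.

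By step, the interval lay above 0 for all 5 genes of the lower pathway: Gapdh, Pgk1, Pgam1, Eno1 and Pkm. It did so for 2 of 3 genes of glucose uptake and lactate export, 2 of 4 at hexokinase and isomerase, 2 of 4 at phosphofructokinase, namely Pfkp and the thinly counted Pfkm, and 2 of 3 at aldolase and triose phosphate isomerase. It did so for 1 of 3 at the lactate and pyruvate branch, namely Ldha, for Hif1a, and for 2 of 7 measured hypoxia-responsive genes, Mif and Ndrg1. In the pooled class the largest well-counted difference was in Hk3, at 163 CPM in niche cells and 89.0 CPM in distal cells, a log2 ratio of 0.87 (0.68 to 1.08). Pkm (chr9:59656368-59679375 on the + strand) had 801 CPM in niche and 492 CPM in distal cells, a log2 ratio of 0.70 (0.62 to 0.79). For these 2 genes, of the 31, the whole interval lay past 1.5-fold. The share of all genes at this stricter limit was not counted. Under equal cluster makeup, described below, Hk3 was at 0.52 and Pkm at 0.48.

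Among the upstream genes, Hif1a had 242 CPM in niche and 145 CPM in distal cells, a log2 ratio of 0.74 (0.58 to 0.90), subject to the overlap named above. Hk2 had 116 CPM in niche and 72.9 CPM in distal cells, a log2 ratio of 0.66 (0.45 to 0.89). Slc2a1 had 45.9 CPM in niche and 31.6 CPM in distal cells, a log2 ratio of 0.53 (0.21 to 0.89). Pfkp and Slc16a3 were close to this, with 125 CPM in niche and 86.2 CPM in distal cells for Pfkp, and 33.4 CPM in niche and 23.1 CPM in distal cells for Slc16a3. Glucose entry, trapping and the commitment step thus each had at least 1 gene with a higher level in niche cells of the pooled class. With the niche cluster proportions in both libraries, described below, the log2 ratios were 0.22 for Slc2a1, 0.53 for Hk2 and 0.34 for Pfkp. In cluster 4, Slc2a1 was at -0.37, Hk2 at 0.29 and Pfkp at -0.34, and each interval held 0.

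In the middle and lower pathway, Tpi1 had 283 CPM in niche and 185 CPM in distal cells, a log2 ratio of 0.62 (0.48 to 0.76). Pgk1 had 269 CPM in niche and 174 CPM in distal cells, also a log2 ratio of 0.62 (0.48 to 0.77). Pgam1, the phosphoglycerate mutase, had 383 CPM in niche and 267 CPM in distal cells, a log2 ratio of 0.52 (0.40 to 0.64). These 3 steps differed by similar amounts, and each interval overlapped those of the other 2. Gapdh had a log2 ratio of 0.50 (0.45 to 0.55), Aldoa of 0.40 (0.32 to 0.49), Ldha of 0.42 (0.33 to 0.52), and Eno1, the enolase, of 0.35 (0.20 to 0.50). Over Aldoa, Tpi1, Gapdh, Pgk1, Pgam1, Eno1, Pkm and Ldha, the 8 genes that lead from sugar cleavage to lactate, the summed level was 4899 CPM in niche and 3420 CPM in distal cells.

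Several genes of the list did not differ beyond their counting intervals. Vegfa had a log2 ratio of 0.06, Pfkfb3 of -0.02, Ero1l of 0.04, Bnip3 of 0.22, P4ha1 of 0.22 and Egln1 of 0.17, and each interval held 0. Hk1 and Ldhb, the isozymes less tied to low oxygen, both had log2 ratios of -0.11 with intervals that held 0. Gpi1 was the exception in the pathway, with 273 CPM in niche and 302 CPM in distal cells, a log2 ratio of -0.14 (-0.25 to -0.03). Pfkm had 75 niche and 2 distal UMIs, Slc16a1 had 95 and 5, and Ankrd37 had 61 and 4. These 3 were past 1.5-fold in the niche direction on so few distal UMIs that their folds are poorly fixed, and each could reach the limit of 20 UMIs only through its niche counts. Pdk1, which encodes a kinase that blocks pyruvate entry into mitochondria, had 53 niche and 6 distal UMIs, a log2 ratio of 0.06.

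**Figure D4:**
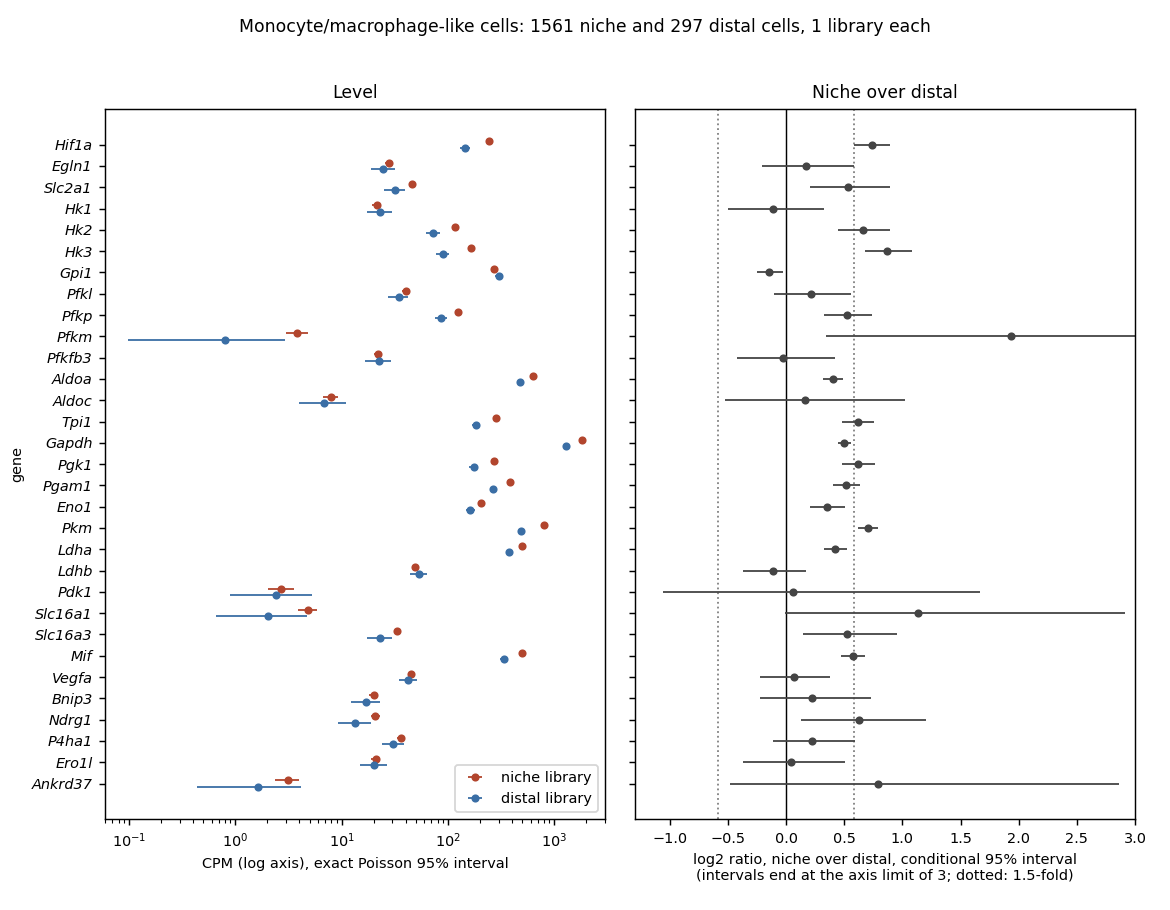
Monocyte/macrophage-like cells: CPM of the 31 measured genes in niche and distal cells on a log axis, and the log2 niche-to-distal ratio with exact conditional binomial 95% intervals. The ratio lies above 0 for 27 of 31 genes, against 47.2% of all genes measured in the class. Hk3 lies at 0.87, Pkm at 0.70 and Gpi1 at -0.14.

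The 4 clusters within this class were not equally represented. Cluster 1, led by Gm15056, Ly6i, Cfb and Cxcl9, was 54.3% of niche and 26.6% of distal cells of the class, and had the highest summed level of the 33 genes, at 7573 CPM in niche cells and 6018 CPM in distal cells. Cluster 2, led by Ccl8, C1qa and Cd63, was 29.6% of niche and 48.5% of distal cells, with 5792 CPM in niche and 3948 CPM in distal cells. When both libraries were given the cluster proportions of the niche, the summed log2 ratio was 0.37 in place of 0.49, the median was 0.34, and 3 genes in place of 10 were past 1.5-fold, against 9.98% of all genes. Those 3 were Pfkm, Slc16a1 and Ankrd37, the genes with few distal UMIs. With these proportions, Hk3 had a log2 ratio of 0.52, Pkm of 0.48, Pgk1 of 0.56, Hk2 of 0.53 and Hif1a of 0.52, so that Hk3 was no longer the largest. Slc2a1 had 0.22 and Pfkp 0.34, both in place of 0.53. The ratios of the pooled class are therefore also ratios of cluster makeup, and the 1.5-fold calls of well-counted genes did not hold under equal makeup.

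Within single clusters the 8 genes from Aldoa to Ldha gave the following. In cluster 2 the intervals of all 8 lay above 0, with log2 ratios of 0.33 to 0.88 and a median of 0.62, against 12.9% of all genes. In cluster 1 the intervals of 7 lay above 0, with ratios of 0.24 to 0.63 and a median of 0.38, against 5.22% of all genes. In cluster 9, led by the interferon-induced genes Rsad2 and Ifit3, 2 intervals lay above 0 at a median of 0.14, against 5.83% of all genes. In cluster 20, led by Saa3, Prg4 and Gpnmb, 3 intervals lay above 0 at a median of 0.05, against 9.92% of all genes, and Aldoa, Pgk1 and Ldha had ratios below 0. This cluster had 56 niche and 27 distal cells, cluster 9 had 196 and 47, and the difference between clusters was not tested.

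The upper pathway differed between clusters as well. In cluster 2, Hk3 had 121 CPM in niche and 46.9 CPM in distal cells, a log2 ratio of 1.35, whereas in cluster 1 it had 197 CPM in niche and 157 CPM in distal cells, a log2 ratio of 0.32. Hif1a in cluster 2 had 144 CPM in niche and 76.6 CPM in distal cells, and in cluster 1 it had 299 CPM in niche and 215 CPM in distal cells. Cluster 1 was therefore already high in both genes in the distal library. Cluster 2 also held 2 genes whose intervals lay below 0, against 9.35% of all genes: Vegfa with 19.0 CPM in niche and 34.6 CPM in distal cells, and Ldhb with 36.4 CPM in niche and 54.3 CPM in distal cells.

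**Figure D5:**
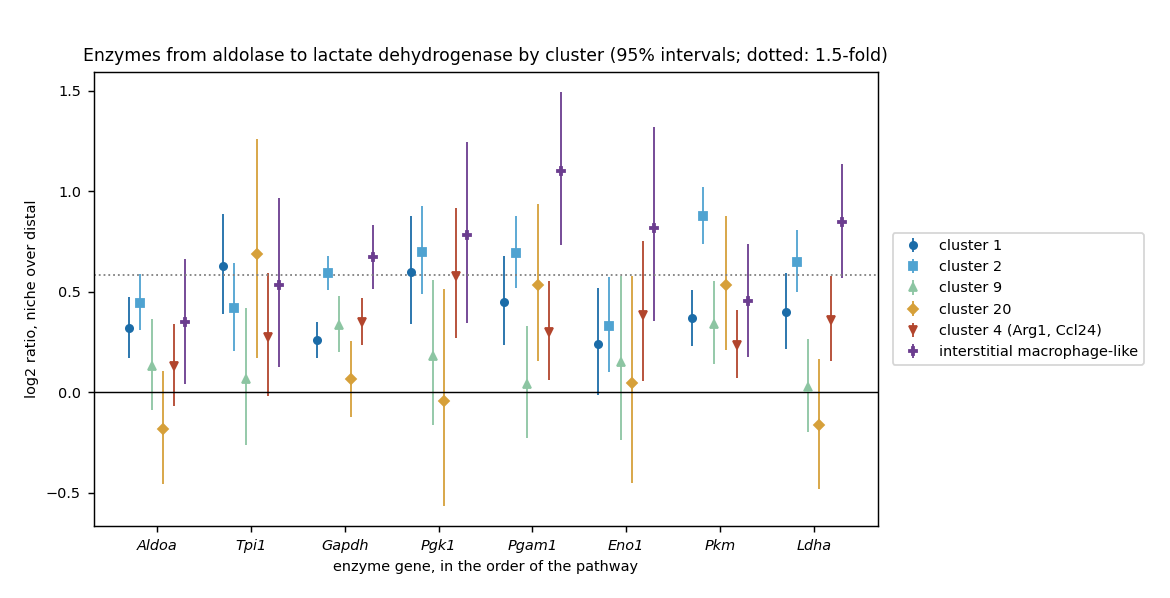
Log2 niche-to-distal ratio of CPM, with exact conditional binomial 95% intervals, for the 8 genes from Aldoa to Ldha in clusters 1, 2, 9 and 20, cluster 4 and interstitial macrophage-like cells. All 8 intervals lie above 0 in cluster 2 and in interstitial macrophage-like cells, 7 in cluster 1, 6 in cluster 4, 3 in cluster 20 and 2 in cluster 9.

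Interstitial macrophage-like cells, which carry Pf4, Folr2 and the complement genes, counted 71 in the niche and 107 in the distal library, and 23 of the 33 genes were measured. Their summed level was 4021 CPM in niche and 2729 CPM in distal cells, a log2 ratio of 0.56 (0.48 to 0.64). Of the 23 genes, 7 were more than 1.5-fold higher in niche cells, against 15.7% of all genes, and Hk1 was more than 1.5-fold lower, against 10.9%. The intervals of 9 genes lay above 0, against 12.9% of all genes, and 0 lay below, against 7.31%. The 9 were the 8 from Aldoa to Ldha, and Mif. Pgam1 had 262 CPM in niche and 122 CPM in distal cells, a log2 ratio of 1.10 (0.73 to 1.49). Ldha had 407 CPM in niche and 225 CPM in distal cells, a log2 ratio of 0.85 (0.57 to 1.14). Gapdh had 1156 CPM in niche and 725 CPM in distal cells, a log2 ratio of 0.67. Among the upper genes, Hk3 had 35.5 CPM in niche and 32.0 CPM in distal cells, and Hif1a had 76.7 CPM in niche and 64.0 CPM in distal cells. Hk2 had 104 CPM in niche and 77.7 CPM in distal cells, a log2 ratio of 0.42 (-0.09 to 0.95). Each of these intervals of the ratio held 0, and each also held 0.73, the median of the 8 genes from Aldoa to Ldha. Higher lower-pathway levels in this class thus came without a detectable difference in Hif1a, Hk2 or Hk3 at this depth. The same counts do not set these genes apart from the lower ones.

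Cluster 4 counted 315 niche and 62 distal cells, with 28 genes measured and a summed level of 7401 CPM in niche and 5987 CPM in distal cells, a log2 ratio of 0.31 (0.25 to 0.37). Mif and Pfkl were more than 1.5-fold higher in niche cells, against 13.8% of all genes, although the interval of Pfkl held 0 and its log2 ratio was -0.82 with each cell thinned to 2000 UMIs, in place of 0.60. Aldoc and Ldhb were more than 1.5-fold lower, against 18.2%. Mif had 630 CPM in niche and 316 CPM in distal cells, a log2 ratio of 0.99 (0.74 to 1.26), the largest for Mif in the 3 classes compared. The intervals of 8 genes lay above 0, against 6.37% of all genes, and 0 lay below, against 8.11%. The 8 were Hk3, Gapdh, Pgk1, Pgam1, Eno1, Pkm, Ldha and Mif. Hk3 had 144 CPM in niche and 100 CPM in distal cells, and Ldha had 640 CPM in niche and 497 CPM in distal cells. Over the 3 classes, Gapdh, Pgk1, Pgam1, Eno1, Pkm, Ldha and Mif were the genes whose intervals lay above 0 in all of them.

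Measures other than the 33 genes also differed between the libraries in the same classes, and their part in these results was not tested. In monocyte/macrophage-like cells 15 of 18 genes of the response to tissue dissociation had intervals below 0, against 12.5% of all genes, with a median log2 ratio of -0.50; Egr1 had 75.5 CPM in niche and 151 CPM in distal cells, Dusp1 was at -0.78 and Jun at -0.74. The same held for 14 of 18 in cluster 4, against 8.11% of all genes and with a median of -0.59, and for 14 of 18 in interstitial macrophage-like cells, against 7.31% and with a median of -0.55. The summed level of 11 neutrophil markers was 99.6 CPM in niche and 210 CPM in distal cells of the class, that of 13 alveolar macrophage markers 55.1 CPM in niche and 206 CPM in distal cells, and that of 12 T cell markers 14.5 CPM in niche and 31.2 CPM in distal cells. The 8 markers of carcinoma cells summed to 11.4 CPM in niche and 9.71 CPM in distal cells, with Cldn4 at 0 in both. Neutrophil markers in cluster 4 summed to 82.5 CPM in niche and 934 CPM in distal cells, and in interstitial macrophage-like cells to 111 CPM in niche and 326 CPM in distal cells. The libraries were also counted with different software versions and gene lists, which cannot be told apart from the groups. As a measure of library-wide shifts, ratios were taken in B cell-like, T cell-like cluster 16, neutrophil-like, and stromal and epithelial cells. Each of these classes had fewer than 50 niche cells. The summed log2 ratio of the 33 genes was 0.44 (0.31 to 0.58) in stromal and epithelial cells, against 0.49 in monocyte/macrophage-like cells. It was 0.05 (-0.20 to 0.28) in neutrophil-like, -0.04 (-0.30 to 0.20) in T cell-like cluster 16 and -0.41 (-0.65 to -0.18) in B cell-like cells. By gene, the medians over these classes were 0.49 for Pgam1, 0.33 for Eno1, 0.10 for Pkm, 0.15 for Ldha and -0.24 for Gapdh. Over these classes Pgam1 ranged from -0.09 to 0.56, Eno1 from 0.01 to 1.08 and Pkm from -0.14 to 0.44. Ldha ranged from -1.43 to 0.28 and Gapdh from -0.41 to 1.06. Hif1a had a median of -0.71, and Hk3 had 0.82 in the only 1 of these classes where it was measured. Eno1 has a near-identical copy in the gene list, Eno1b, with 119 niche and 9 distal UMIs in monocyte/macrophage-like cells, and reads could be split between them. Cells with less RNA and classes with fewer cells were brought to the same scale by CPM, which describes shares of a class's RNA and not amounts per cell.

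Genes around the pathway, from lists that do not hold the 33, were also counted in monocyte/macrophage-like cells, where 12.3% of all genes had intervals above 0 and 12.5% below. Of 22 other glycolysis genes 14 were measured, with 2 intervals above 0 and 0 below and a median of 0.25; Pgm2, a phosphoglucomutase that the niche list names Pgm1, was at 0.87 and Pgp, a phosphatase, at 0.40. Of 27 genes of pyruvate entry and the tricarboxylic acid cycle 26 were measured, with 8 intervals above 0 and 2 below and a median of 0.12; Pdhb, a pyruvate dehydrogenase subunit, was at 0.58, Suclg1 at 0.31 and Ogdh at 0.29, and Idh3g was at -0.24 and Fh1 at -0.23. The 7 genes of the pentose phosphate pathway had 0 intervals on either side of 0, with a median of 0.04.

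Of 39 other known targets of HIF 31 were measured, with 5 intervals above 0 and 10 below, against 12.3% of all genes above and 12.5% below, and a median of 0.01. Mxi1, a MYC antagonist, was at 0.58 and Higd1a, a mitochondrial protein, at 0.41, whereas Selenbp1 was at -1.32 and Pfkfb4, a relative of Pfkfb3, at -0.89. Of 15 regulators of HIF 13 were measured, with 3 intervals above 0 and 1 below against the same shares; the 3 were Eloc at 0.32, Elob at 0.25 and Rbx1 at 0.18, subunits of the ligase complex that marks HIF-1α for degradation.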

How the data were processed

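Counts came from 1 niche and 1 distal library, grouped by the sample titles. The authors deposited raw UMI counts for each gene and barcode; the matrix headers name software versions 6.0.0 (niche) and 3.0.2 (distal). The submitters' processing notes name, without a role for each, the builds GRCm38 and mm10 and the tools Bowtie2, RSEM, Seurat 4.1.1 and Cell Ranger 3.02. The gene lists held 32285 niche and 30149 distal rows, of which 29413 identifiers were shared and used; GENCODE annotation placed 442 of these over a gene of 1 list only, among the 33 genes Hif1a alone.

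Cells needed 200 genes or more and no more than 10% of UMIs from mitochondria; 4 barcode sequences occurred in both libraries. Scrublet in scanpy 1.11.5 (expected rate 0.03) called 1 niche and 4 distal doublets, too few to rely on, and these calls were removed. Clustering used 2000 variable genes, 30 components, 20 neighbours and the Leiden method at resolution 1.0 (scikit-learn 1.9.0, igraph 0.11.9, leidenalg 0.10.2). Naming thresholds were set after the clusters were seen, and clusters that carried markers of several lineages were left as mixed. UMIs were summed by class and library and expressed as CPM over shared identifiers. Log2 ratios had 0.5 UMI added to each sum and exact conditional binomial intervals; levels had exact Poisson and shares exact Clopper-Pearson intervals, all at 95%. Ratios needed 50 cells in each library, or 20 for a cluster, and 20 UMIs over both. The ratio step was tested on simulated counts. Cells are not replicates, so no p-value is given.

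Members with at least 100 UMIs in a class and either an interval past 1.5-fold, or one past equality with a ratio past 1.25-fold, were named with values, and otherwise the classes at the extremes of each level. For 1 gene of the other lists the result is not reported here. The 33 genes, the marker lists and the other gene lists were chosen with earlier results of these data known. Alternatives changed the scaling (edgeR 4.0.16), filters, clustering, depth and cluster makeup. R 4.3.3 and Python 3.11.15 were used, with pandas 2.3.3, scipy 1.17.1, numpy 2.4.6 and matplotlib 3.10.9.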

Additional observations from a re-analysis of the deposited data

Results flagged for a closer look

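In 5 cases the interval of a gene lay wholly on the other side of 0 from its interval in monocyte/macrophage-like cells. Each was in a class with fewer than 50 cells in a library, and the differences were not tested. Ratios of opposite sign whose interval held 0 in either class are not among these cases. Gpi1 in stromal and epithelial cells had 280 CPM in the niche and 125 CPM in the distal library, giving a log2 ratio of 1.16, against -0.14 in monocyte/macrophage-like cells. Ldha in B cell-like cells had 77.8 CPM in the niche and 223 CPM in the distal library, giving a log2 ratio of -1.43, and in conventional dendritic-like cells 419 CPM in the niche and 519 CPM in the distal library, giving a log2 ratio of -0.30; in monocyte/macrophage-like cells it was 0.42. Mif in B cell-like cells had 145 CPM in the niche and 272 CPM in the distal library, giving a log2 ratio of -0.86, against 0.58. Ndrg1 in proliferating monocyte/macrophage-like cells had 9.69 CPM in the niche and 26.0 CPM in the distal library, giving a log2 ratio of -1.46, against 0.62.

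A group of low-UMI cells, kept out of every comparison, had a summed level of the 33 genes of 7514 CPM in the niche library (interval 7255 to 7779), above every named niche class. It held 304 niche and 6 distal cells, with a median of 913 UMIs in the niche, and was led by Hspa1b and Hspa1a, so that a distal level could not be set beside it.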

How the results depend on the processing

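No paired analysis was possible because each group is 1 library, and for the same reason no replicate could be left out. Of 618 ratios of single genes recomputed under the alternatives, 577 stayed within their interval. A sign opposite to the reported one was found for 34, all of genes whose interval held 0; among these were Hk1, Aldoc, Bnip3 and Ero1l under niche cluster proportions, at 0.18, -0.10, -0.04 and -0.07, and 1 was of a gene past 1.5-fold, Pfkl in cluster 4, at -0.82 after thinning in place of 0.60. Of 86 levels and shares, 79 stayed within their interval. The count of genes past 1.5-fold in monocyte/macrophage-like cells was 10 and became 3 under niche cluster proportions in both libraries. Their summed log2 ratio of 0.49 became 0.37 under those proportions, 0.33 in the largest cluster alone, 0.43 at Leiden resolution 0.5, 0.44 with the proliferating cluster included, 0.53 with each cell thinned to 2000 UMIs and 0.54 as a mean of CPM per cell. With cluster 4 included, an alternative chosen after seeing the data, the count was 9 and the sum 0.46. In cluster 4 the count was 4 in place of 2 after thinning, and the sum of 0.31 became 0.37 after thinning and also when the median of all genes was set to 0. As a mean of CPM per cell, niche migratory dendritic-like cells had 209 CPM of Pfkfb3 in place of 146 and 148 CPM of Ndrg1 in place of 108. The limit of 5% mitochondrial UMIs came with a new clustering and naming of the cells that remained. Under it, conventional dendritic-like cells had 129 CPM of Pfkp in the niche and 152 CPM in the distal library, in place of 287 and 253. Their Pfkp shares were 80.0% in the niche and 86.9% in the distal library, in place of 95.04% and 90.6%. Their distal Hk2 share was 43.2% in place of 59.2%. The cause of these changes was not tested, apart from those made by the cluster makeup itself. Depth limits the neutrophil-like and lymphoid classes of the niche most, where 29 neutrophil-like cells had a median of 1235 UMIs.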

Other observations

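Genes around the pathway also differed in the other 2 classes compared. In interstitial macrophage-like cells Hmox1, which encodes the haem-degrading oxygenase, had 309 CPM in niche and 94.4 CPM in distal cells, a log2 ratio of 1.70 (1.31 to 2.13). Higd1a, a mitochondrial protein induced by low oxygen, had 92.8 CPM in niche and 47.2 CPM in distal cells of this class, a log2 ratio of 0.96. Mdh2, the mitochondrial malate dehydrogenase, was at 0.93 and Tkt, a transketolase of the pentose phosphate pathway, at 0.62. Pfkfb4, with 9 niche and 19 distal UMIs in this class, had an interval below 0. Of all genes in this class, 12.9% had intervals above 0 and 7.31% below. In monocyte/macrophage-like cells Hmox1 was lower in the niche, at -0.23 (-0.41 to -0.05). In cluster 4 the pentose phosphate gene Taldo1 was lower in the niche, with 449 CPM in niche and 627 CPM in distal cells. Its log2 ratio was -0.49 there, whereas in interstitial macrophage-like cells it was at 0.40. The difference between these classes was not tested.

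Of the cell cycle genes measured in cluster 4, 9 of 17 had intervals above 0 and 0 below, against 6.37% of all genes above and 8.11% below. Each of the 17 had at most 10 distal UMIs, and so could pass the minimum of UMIs only through its niche counts. The minimum thus favoured genes with high niche counts, and the folds of these genes in cluster 4 are poorly fixed. Pcna, the clamp of replicating DNA, had 137 CPM in niche and 17.2 CPM in distal cells there, a log2 ratio of 2.90 (1.95 to 4.32). In interstitial macrophage-like cells 7 of 14 measured cell cycle genes had intervals above 0 and 1 below, against 12.9% of all genes above and 7.31% below, with Pcna at 153 CPM in niche cells and 44.2 CPM in distal cells. In monocyte/macrophage-like cells Pcna was at 1.53, whereas Mki67 was at -0.72 and Ube2c at -1.55.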
